A study of Mus musculus with 10 samples.

Results

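The 34 genes described here encode the enzymes that build glycerophospholipids and triglycerides and the proteins that coat lipid droplets or release fatty acids from them. They were chosen by symbol from the 24470 genes of a count table, and all 34 have a row in it. They fall into 13 phospholipid genes, 13 triglyceride genes and 8 droplet genes.

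Testes of C57BL/6 mouse embryos at E12.5 were cultured as gonad-mesonephros complexes on agar for 48 h, and the gonad was freed from the mesonephros before RNA was extracted. Of each embryo, 1 gonad received 75 µM CP 316819, an inhibitor of glycogen phosphorylase (GPI), and the other received the solvent DMSO (vehicle). The 5 embryos, M1 to M5, gave 10 RNA-seq libraries, 5 per group, and the comparison is GPI against vehicle within embryos. It addresses what inhibition of glycogen breakdown does to RNA levels in the fetal testis. The agent was in the medium of the whole explant, so it was not aimed at a cell type. Libraries held between 10203679 (M2, vehicle) and 15635322 (M2, GPI) counted read pairs. The GPI library of M1 stood apart from the other 4 of its group, with a chi-square of 21.7 to 27.8 per degree of freedom over genes, against 7.48 to 11 among those 4 and 6.42 to 21.2 among the vehicle libraries, so values without M1 are given where they change a call. Among the vehicle libraries, pairs with M2 were at 13.0 to 21.2 and the other pairs at 6.42 to 13.7.

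Phosphatidylcholine and phosphatidylethanolamine are made by parallel branches of the Kennedy pathway. A kinase phosphorylates choline or ethanolamine, a cytidyltransferase activates the product with CTP, and a phosphotransferase joins it to diacylglycerol. Diacylglycerol comes from glycerol 3-phosphate by acylation and removal of the phosphate, and a further acylation turns it into triglyceride, which is stored in droplets under a coat of perilipins. In the testis, steroid-making Leydig cells are known for droplets that hold sterol esters.

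Of the 34 genes, 29 had enough counts to be tested. With GPI 7 of them were higher and 2 were lower at a false discovery rate of 0.05 in the paired edgeR fit over all genes, and 20 did not pass. The higher genes were the choline kinase gene Chka, the ethanolamine kinase gene Etnk2, the cytidyltransferase gene Pcyt2, the phosphatidylserine synthase gene Ptdss1 and the acyltransferase genes Gpam, Agpat3 and Agpat4. The lower genes were the phosphatidate phosphatase gene Lpin3 and the monoacylglycerol lipase gene Mgll. Of all 13941 tested genes 22.9% passed, 11.1% higher and 11.9% lower. Among the 29 these shares were 31.0%, 24.1% and 6.90%, which describe a list chosen with earlier results of these data known. Without embryo M1, 7 were higher, with Chpt1 in place of Ptdss1, and 1 was lower. Without M2, M3, M4 or M5 there were 6, 3, 4 or 6 higher and 2, 1, 2 or 1 lower. Over all genes, 1544 were higher with all embryos, 969 without M3 and 1024 without M4. The median log2 fold change, GPI over vehicle, was 0.18 for the 29 genes and 0.02 for all tested genes.

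By class, 33.3% of the tested phospholipid genes, 36.4% of the triglyceride genes and 16.7% of the droplet genes passed, against 22.9% of all tested genes. Of 12 tested phospholipid genes 4 were higher and 0 were lower in edgeR, where 2 had an unadjusted p under 0.05 in the lower direction, and DESeq2 and limma-voom also called 0 lower. Of 11 tested triglyceride genes 3 were higher and 1 was lower. Of 6 tested droplet genes 0 were higher in edgeR, 0 had an unadjusted p under 0.05 in that direction, DESeq2 and limma-voom called 0, and 1 was lower. Without M3 or M4 there were 2 phospholipid genes higher, and the triglyceride genes higher were 1 without M3 and 2 without M4. The lower triglyceride gene did not pass without M1, M2, M3 or M5. The class medians of the log2 fold change were 0.19, 0.13 and 0.14, and a difference between classes was not tested. In counts scaled by TMM to the mean library size, called normalised counts from here on, the summed droplet genes came to 943 ± 87.3 with vehicle and 939 ± 114 with GPI (SD, n = 5). The summed triglyceride genes came to 5196 ± 517 with vehicle and 6201 ± 214 with GPI, and the phospholipid genes to 5279 ± 258 with vehicle and 5788 ± 473 with GPI.

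**Figure D1:**
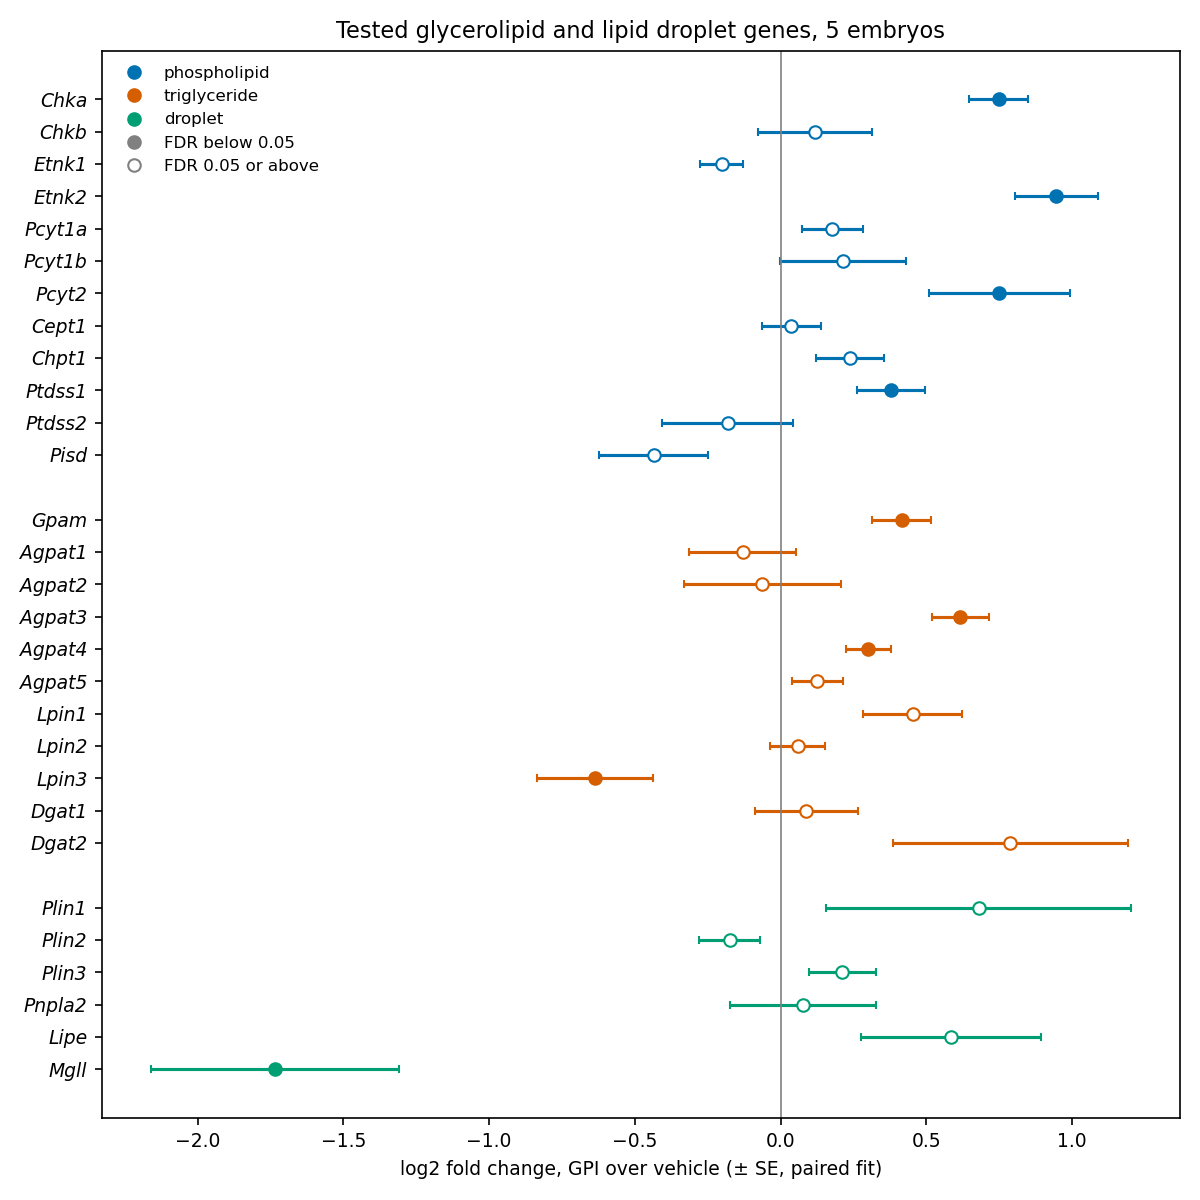
Log2 fold change of normalised counts, GPI over vehicle, with its standard error for the 29 tested genes, coloured by class. Filled points passed a false discovery rate of 0.05 in edgeR, 7 to the right of 0 and 2 to the left, and no droplet gene is among those to the right.

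The first step of phosphatidylcholine synthesis held the smallest adjusted p of the 29 genes. Chka (Entrez gene 12660, chr19:3851773-3894369, mm10) phosphorylates choline. It had normalised counts of 512, 438, 533, 476 and 654 with vehicle in M1 to M5, and of 726, 831, 924, 982 and 909.8 with GPI. The groups did not overlap, and each gonad with GPI was above its partner. Groups without overlap were found for 7.07% of all tested genes in the higher direction and 9.05% in the lower, and for 2 higher and 2 lower genes of the 29. The log2 fold change of Chka was 0.75 ± 0.10 (SE), a rise of 1.68-fold, with adjusted p = 0.000108 in edgeR over all tested genes. It passed under all 12 alternative settings that were run. Log2 fold changes are given ± SE of the fit throughout, also where they stand in parentheses beside an adjusted p, and means of counts ± SD of 5 gonads. In bulk RNA, more cells of one type and more RNA per cell cannot be told apart. Its relative Chkb had 50.9, 59.7, 81.5, 70.7 and 89.1 with vehicle and 68.3, 75.4, 74.2, 82.1 and 77.4 with GPI, ranges that overlap, and did not pass (0.12 ± 0.20, adjusted p = 0.729 in edgeR). Chkb overlaps the gene Gm44502 on the same strand, so its counts are uncertain.

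The promoter of Chka is printed because this gene rose in all 5 embryos, followed by those of Etnk2, which also rose, and Mgll, which fell. Each line is the 250 bases before the annotated start from RefSeq (GRCm38.p6), 5′ to 3′ on the strand of the gene, at chr19:3851523-3851772 (plus strand), chr1:133363322-133363571 (plus) and chr6:88724162-88724411 (plus). Capitals mark the CCAAT box in Chka, the GC box GGGCGG in Etnk2 and the E-box CACGTG in Mgll, on either strand, and matches may overlap.
Chka: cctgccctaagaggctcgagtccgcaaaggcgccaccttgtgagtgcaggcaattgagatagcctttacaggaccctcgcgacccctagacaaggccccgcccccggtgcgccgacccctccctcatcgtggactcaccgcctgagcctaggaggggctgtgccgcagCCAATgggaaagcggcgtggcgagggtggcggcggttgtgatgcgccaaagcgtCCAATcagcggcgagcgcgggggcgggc
Etnk2: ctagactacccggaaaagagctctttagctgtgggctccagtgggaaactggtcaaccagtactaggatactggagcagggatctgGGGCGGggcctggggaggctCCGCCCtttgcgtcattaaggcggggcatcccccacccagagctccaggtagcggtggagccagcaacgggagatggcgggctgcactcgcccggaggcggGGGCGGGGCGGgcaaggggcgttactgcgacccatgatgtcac
Mgll: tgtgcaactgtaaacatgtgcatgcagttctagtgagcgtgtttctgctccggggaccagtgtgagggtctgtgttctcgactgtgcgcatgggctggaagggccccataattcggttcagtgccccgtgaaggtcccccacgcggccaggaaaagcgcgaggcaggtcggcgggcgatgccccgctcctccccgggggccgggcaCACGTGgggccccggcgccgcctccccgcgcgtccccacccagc

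The Chka window held 2 CCAAT boxes and also 2 GC boxes, the Etnk2 window 4 GC boxes and the Mgll window 1 E-box. Over all 32851 promoters of this length 33.8% hold CCAAT, 32.7% hold GGGCGG and 6.02% hold CACGTG. Of the 34 genes 28 had an entry, some with several starts, which made 43 promoters, and 34.9%, 51.2% and 6.98% of these held the motifs. Mgll has 2 entries, of which the one at its start in the count table is printed. Pcyt2, Ptdss1, Agpat5, Dgat1, Dgat2 and Mogat2 had none. The sterol regulatory element spelled TCACNCCAC, present in 1.05% of all promoters, was found in 2 of the 43, both of Pcyt1a, and the NR5A1 element CAAGGTCA, present in 1.33%, in 0. These matches describe letters in a window and not bound sites.

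Of the ethanolamine kinase genes, Etnk2 passed and Etnk1 did not. Etnk2 (Entrez gene 214253, chr1:133363572-133380318) had 76.4, 131, 117, 126 and 165 normalised counts with vehicle and 141, 217, 233, 329 and 276 with GPI. Every embryo rose, although the M1 gonad with GPI lay within the vehicle range. The log2 fold change was 0.95 ± 0.14, the largest of the 7 rises, with adjusted p = 0.000243 in edgeR, and the call held under the 12 alternatives. Etnk1, which catalyses the same reaction, had 2246, 1965, 2259, 2214 and 2200 with vehicle and 1792, 1994, 1830, 1840 and 1999 with GPI. It was lower in 4 of 5 embryos and did not pass in the paired fit (-0.20 ± 0.07, adjusted p = 0.0665 in edgeR). It passed without the embryo block (adjusted p = 0.0361), with library totals as the only scaling (0.0224) and without embryo M2 (0.0204, range over the 12 alternatives 0.0204 to 0.193). Per kilobase of its longest coding transcript Etnk1 stayed the more abundant of the pair, at 338 normalised counts with vehicle and 294 with GPI, against 53.6 and 104 for Etnk2.

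At the cytidyltransferase step the ethanolamine branch passed and the choline branch did not. Pcyt2 (Entrez gene 68671, chr11:120610087-120617890), which activates phosphoethanolamine, had 42.1, 37, 41.3, 39.8 and 51 normalised counts with vehicle and 47, 81.9, 59.9, 101 and 74.1 with GPI. All 5 embryos were higher, M1 by the least, and the groups overlapped. Pcyt2 had a log2 fold change of 0.75 ± 0.24 (adjusted p = 0.0388 in edgeR). This call rests on few counts. It was lost without embryo M2, M3, M4 or M5 (adjusted p = 0.106, 0.0813, 0.179 and 0.0699) and with library totals as the scaling (0.055). Pcyt1a, its counterpart for phosphocholine, had 473, 546, 472, 557 and 628 with vehicle and 582, 654, 594, 673 and 519 with GPI, higher in 4 of 5 embryos (0.18 ± 0.10, adjusted p = 0.265). Pcyt1b ranged from 112 to 150.1 with vehicle and 68.3 to 216 with GPI (0.21 ± 0.22, adjusted p = 0.543). Its lowest value with GPI was in M1, the only embryo in which it was lower. Without M1 the log2 fold change was 0.45 (adjusted p = 0.0734), and without M4 it was 0.05 (adjusted p = 0.921).

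The 2 phosphotransferase genes among the 34 did not pass. Cept1, which serves both branches, had 369.8, 330.5, 317, 416 and 403 normalised counts with vehicle and 331, 368, 367, 423 and 390.1 with GPI (0.04 ± 0.10, adjusted p = 0.845 in edgeR), and its sign turned with library totals as the scaling (log2 fold change -0.01). Chpt1, specific to choline, had 941, 662, 808, 874 and 667 with vehicle and 746, 949, 919.5, 1032 and 995 with GPI (0.24 ± 0.12, adjusted p = 0.17) and passed without embryo M1 (adjusted p = 0.0151, range over the 12 alternatives 0.0151 to 0.45). The groups overlapped for both, with Cept1 higher in 3 of 5 embryos and Chpt1 in 4 of 5. The spans of both genes overlap genes on the other strand, Dram2 and Dennd2d for Cept1 and Sycp3 for Chpt1, and counting ignored strand.

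Phosphatidylserine is made by exchange of head groups, from phosphatidylcholine by Ptdss1 and from phosphatidylethanolamine by Ptdss2. Ptdss1 (Entrez gene 19210, chr13:66932830-66998401) had 267, 309, 277, 324 and 361 normalised counts with vehicle and 419.7, 354, 389, 478 and 361 with GPI. It was higher in 4 of 5 embryos and equal to within 1 count in M5. For Ptdss1 the log2 fold change was 0.38 ± 0.12 (adjusted p = 0.0324 in edgeR), and the call was lost without M1, M3 or M4 (adjusted p = 0.118, 0.137 and 0.133) and with library totals (0.0716). Its span overlaps Mterf3 on the other strand. Ptdss2 had 47.6, 79.9, 51.4, 58.8 and 67.8 with vehicle and 42.5, 71.3, 45.6, 71.5 and 41.4 with GPI (-0.18 ± 0.23, adjusted p = 0.63). Pisd, which converts phosphatidylserine to phosphatidylethanolamine in mitochondria, was lower in 5 of 5 embryos without passing (147 ± 41.4 with vehicle and 107 ± 16.9 with GPI, -0.44 ± 0.19, adjusted p = 0.115). Its log2 difference was -1.24 in M2 and between -0.30 and -0.07 in the other 4, and without M2 the log2 fold change was -0.23 (adjusted p = 0.368). Pisd has pseudogene copies with rows of their own in the table, so its counts are uncertain.

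**Figure D2:**
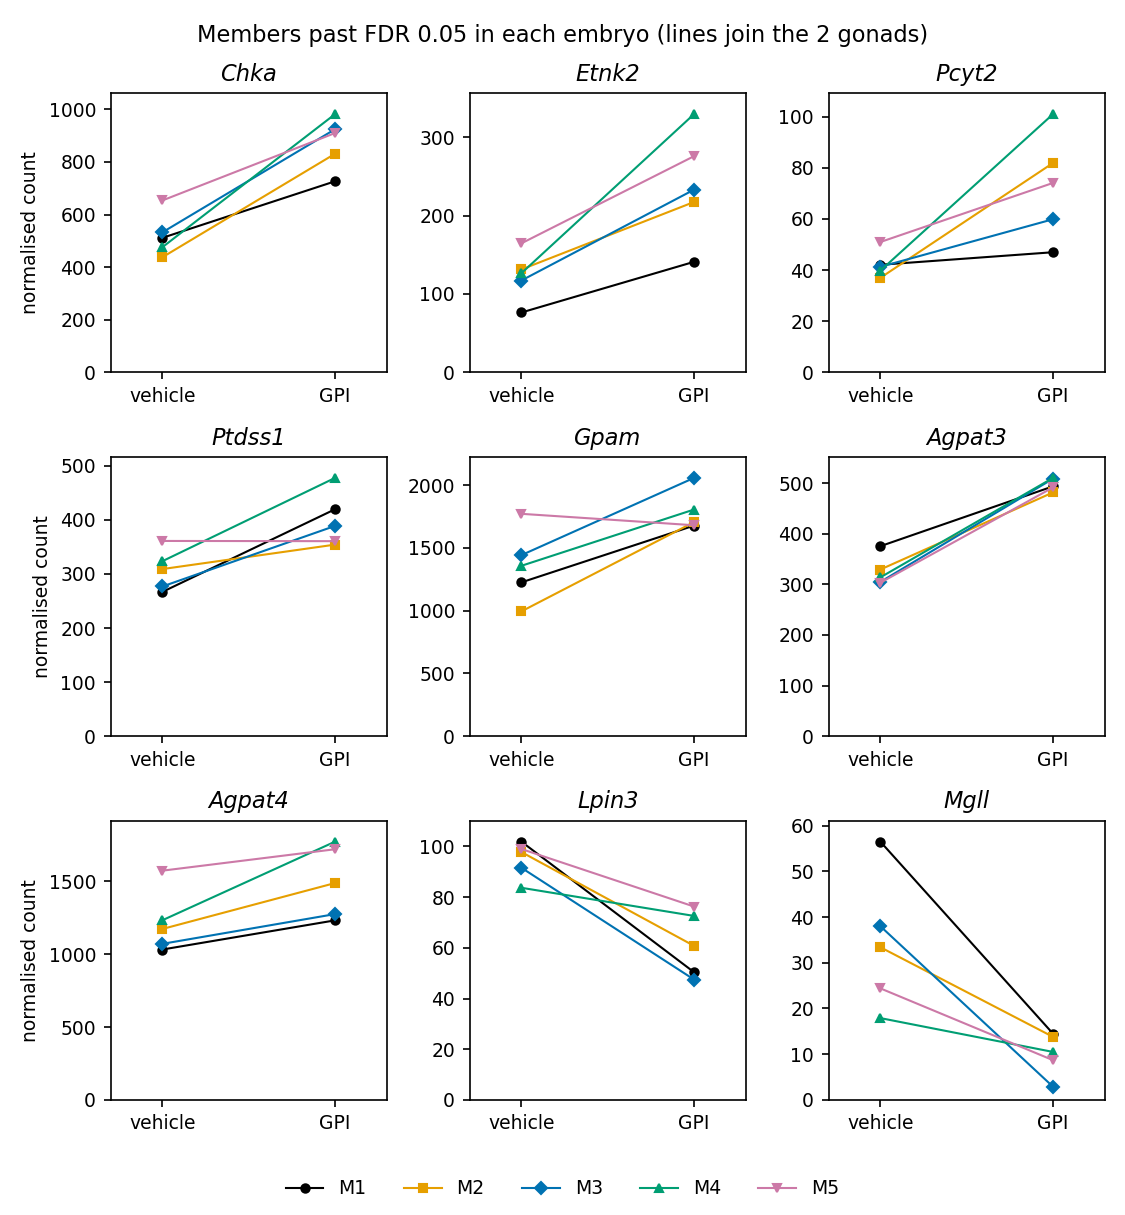
Normalised counts of the 9 genes that passed in edgeR, in the vehicle and GPI gonad of each embryo, with a line joining both gonads and axes that start at 0. Chka and Agpat3 rise in all 5 embryos without overlap of the groups, Lpin3 and Mgll fall in all 5, and Ptdss1 and Gpam do not rise in M5.

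The acylation of glycerol 3-phosphate starts with Gpam, the mitochondrial acyltransferase (Entrez gene 14732, chr19:55069734-55099447). It had 1225, 994, 1442, 1357 and 1771 normalised counts with vehicle and 1677, 1705, 2057, 1805 and 1680 with GPI. Gpam was higher in 4 of 5 embryos, and in M5 it was slightly lower. The log2 fold change was 0.41 ± 0.10 (adjusted p = 0.00923 in edgeR), and without embryo M3 the adjusted p was 0.0594 (range over the 12 alternatives 0.00107 to 0.0594).

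The next acylation, to phosphatidate, is carried out by the Agpat enzymes. Of their 5 genes 2 passed, both higher, where 11.1% of all tested genes were called higher. Agpat3 (Entrez gene 28169, chr10:78271563-78351700) had 375, 329, 305, 314 and 303 normalised counts with vehicle and 494, 482, 509, 510.3 and 491 with GPI. The groups did not overlap and the GPI gonads lay close together. Its log2 fold change was 0.62 ± 0.10 (adjusted p = 0.000421 in edgeR), which passed under the 12 alternatives. Agpat4 (Entrez gene 68262, chr17:12119284-12219640) had 1032, 1173, 1071, 1233 and 1573 with vehicle and 1232, 1488, 1275, 1772 and 1720 with GPI. It rose in each of the 5 embryos, but the groups overlapped. Agpat4 had a log2 fold change of 0.30 ± 0.08 (adjusted p = 0.0123 in edgeR). Without the embryo block the adjusted p was 0.105, and without M3 or M4 it was 0.0531 or 0.0766.

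Per kilobase, Agpat4 was the most abundant of the 6 acyltransferase members in both groups, at 635 normalised counts with vehicle and 782 with GPI, ahead of Gpam at 220 and 289. Agpat1, Agpat2, Agpat3 and Agpat5 lay between 33.8 and 59.3 with vehicle. Agpat1 (-0.13 ± 0.18, adjusted p = 0.676), Agpat2 (-0.06 ± 0.27, adjusted p = 0.902) and Agpat5 (0.13 ± 0.09, adjusted p = 0.35) did not pass in edgeR. Agpat1 overlaps Egfl8 on the other strand and Agpat3 holds a microRNA gene, so their counts are uncertain.

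Lipins remove the phosphate from phosphatidate to give diacylglycerol, and of the 3 genes Lpin3 passed. Lpin3 (Entrez gene 64899, chr2:160880670-160906000) had 102, 97.8, 91.6, 83.7 and 99 normalised counts with vehicle and 50.4, 60.8, 47.5, 72.6 and 76.3 with GPI. Each embryo was lower with GPI and the groups did not overlap. The log2 fold change was -0.64 ± 0.20 (adjusted p = 0.0329 in edgeR), and the call was lost without M1, M2, M3 or M5 (adjusted p = 0.0884, 0.0694, 0.112 and 0.0525). Lpin1 had 187, 152, 107, 169 and 162 with vehicle and 264, 180, 259.6, 182 and 182 with GPI, higher in 5 of 5 embryos (0.45 ± 0.17, adjusted p = 0.0727), and it passed when no low-count filter was used (adjusted p = 0.048, range over the 12 alternatives 0.048 to 0.348). Its log2 difference was 1.26 in M3 and at most 0.49 in the other 4, and without M3 the log2 fold change was 0.24 (adjusted p = 0.348). Lpin2 had 1084, 887, 1022, 1051 and 1140 with vehicle and 1021, 1201, 1061, 1145 and 969.8 with GPI (0.06 ± 0.10, adjusted p = 0.724). Lpin2 was the most abundant of the lipins per kilobase, at 184 with vehicle against 27.8 for Lpin1 and 27.3 for Lpin3.

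The final step to triglyceride showed no call. Dgat1 had 194, 136, 157, 122 and 228 normalised counts with vehicle and 172, 164, 218, 179 and 145 with GPI, higher in 3 of 5 embryos (0.09 ± 0.18, adjusted p = 0.781 in edgeR). Dgat2 was close to the detection filter at 33.2, 8.4, 11.2, 9 and 7.6 with vehicle and 54.8, 12.2, 8.6, 26.3 and 19.6 with GPI (0.79 ± 0.40, adjusted p = 0.192), and both M1 gonads had the highest value of their group. Per kilobase Dgat1 exceeded Dgat2, at 88.7 against 6.13 with vehicle.

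Perilipins coat the droplet surface, and none of the 3 tested genes passed in edgeR, DESeq2 or limma-voom, with 0 at an unadjusted p under 0.05. Plin2, the most abundant per kilobase at 287 with vehicle and 256 with GPI, had normalised counts of 530.4, 564, 525, 546 and 542 with vehicle and 622, 422, 451, 478 and 449 with GPI. The vehicle gonads were close together, 4 GPI gonads were below all of them, and the M1 gonad with GPI was above all of them (-0.18 ± 0.10, adjusted p = 0.27). Without M1 the log2 fold change was -0.29 and did not pass (adjusted p = 0.0551). Plin3 had 260.2, 326, 211, 232 and 232 with vehicle and 291, 306, 239, 311 and 304 with GPI, higher in 4 of 5 embryos (0.21 ± 0.12, adjusted p = 0.225). Plin1 varied the most, at 3.3, 72.8, 13.4, 10 and 38.1 with vehicle and 22.4, 26.8, 17.1, 54.7 and 51.2 with GPI (0.68 ± 0.52, adjusted p = 0.404), and its log2 fold change ran from 0.24 without M4 to 1.31 without M2.

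Stored triglyceride is broken down in sequence by Pnpla2, Lipe and Mgll, and only the last passed in edgeR. Mgll (Entrez gene 23945, chr6:88724412-88828360) releases the final fatty acid from monoacylglycerol. Its counts were low, at 56.5, 33.4, 38, 17.9 and 24.4 normalised counts with vehicle and 14.5, 13.8, 2.9, 10.5 and 8.7 with GPI. Every embryo fell and the groups did not overlap. Mgll had a log2 fold change of -1.73 ± 0.43 (adjusted p = 0.00896 in edgeR), so the level with GPI was 30.1% of that with vehicle. The call held under the 11 alternatives in which it was tested; a minimum of 10 counts in every library set it aside. Pnpla2 ranged from 24.6 to 59.4 with vehicle and 29.5 to 61.6 with GPI (0.08 ± 0.25, adjusted p = 0.867). Lipe, which also cleaves sterol esters, ranged from 23.9 to 32.4 with vehicle and 30.4 to 62.1 with GPI (0.58 ± 0.31, adjusted p = 0.209), and its span overlaps a gene on the other strand.

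**Figure D3:**
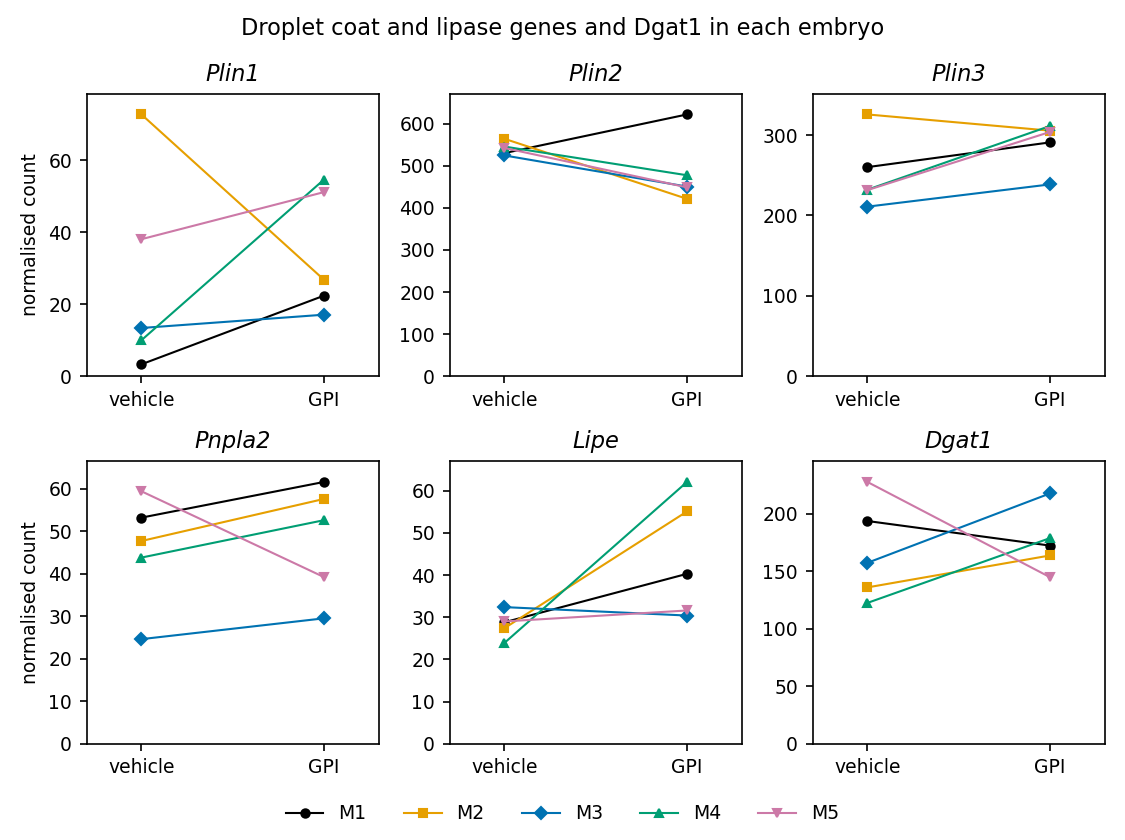
Normalised counts of 3 perilipin genes, 2 lipase genes and Dgat1 in the vehicle and GPI gonad of each embryo, with axes that start at 0. None of the 6 passed in edgeR, and M1 is the only embryo in which Plin2 is higher with GPI.

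The 5 genes set aside by the low-count filter were Pemt, Mogat1, Mogat2, Plin4 and Plin5. Mogat2, an acyltransferase of monoacylglycerol, had 6, 7, 24, 5 and 7 raw counts with vehicle in M1 to M5 and 1, 3, 0, 0 and 0 with GPI. The groups did not overlap, and in the fit without the filter it had an adjusted p of 0.0160 in edgeR. It is singled out after its values were seen. Its relative Mogat1 had 1 count in all 10 libraries together, and 3 counts, the upper limit that a count of 0 allows, correspond to 0.192 to 0.294 CPM across the libraries for counting error alone. Plin5 summed to 27 counts with vehicle and 75 with GPI, Plin4, which overlaps Hdgfl2, to 41 and 64, and Pemt, which methylates phosphatidylethanolamine, to 37 and 54. None of these 3 passed in the unfiltered fit (adjusted p = 0.213, 0.470 and 0.868 in edgeR).

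Ratios of related genes within a library depend little on library scaling. The log2 ratio of Chka to Chkb was 3.28, 2.83, 2.68, 2.72 and 2.85 with vehicle in M1 to M5 and 3.37, 3.43, 3.60, 3.55 and 3.52 with GPI. It was higher in 5 of 5 embryos, with a mean log2 change of 0.62 ± 0.32 (SD). The log2 ratio of Etnk1 to Etnk2 was 4.84, 3.88, 4.25, 4.11 and 3.72 with vehicle and 3.65, 3.19, 2.96, 2.48 and 2.85 with GPI. It was lower in 5 of 5 embryos, with a mean log2 change of -1.14 ± 0.36. That of Ptdss1 to Ptdss2 was 2.44, 1.92, 2.39, 2.42 and 2.38 with vehicle and 3.24, 2.28, 3.04, 2.71 and 3.06 with GPI, higher in 5 of 5 with a mean log2 change of 0.56 ± 0.22. For these 3 ratios the exact two-sided permutation p was 0.0625, the smallest that 5 pairs allow, and the adjusted value over the 8 ratios was 0.167, so no ratio could pass 0.05. The ratios Pcyt1a to Pcyt2 and Plin2 to Plin3 were lower in 4 of 5 embryos with mean log2 changes of -0.54 ± 0.50 and -0.39 ± 0.29 (exact p = 0.125 for both). Dgat1 to Dgat2 was lower in 4 of 5 at -0.58 ± 0.96 (exact p = 0.188), Cept1 to Chpt1 was lower in 3 of 5 at -0.20 ± 0.31 and Lpin1 to Lpin2 higher in 3 of 5 at 0.40 ± 0.55 (exact p = 0.250 for both). These 3 means depended on single embryos. Dgat1 to Dgat2 was at -0.27 without M5 and -0.92 without M3, Cept1 to Chpt1 at -0.10 without M5 and Lpin1 to Lpin2 at 0.19 without M3.

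**Figure D4:**
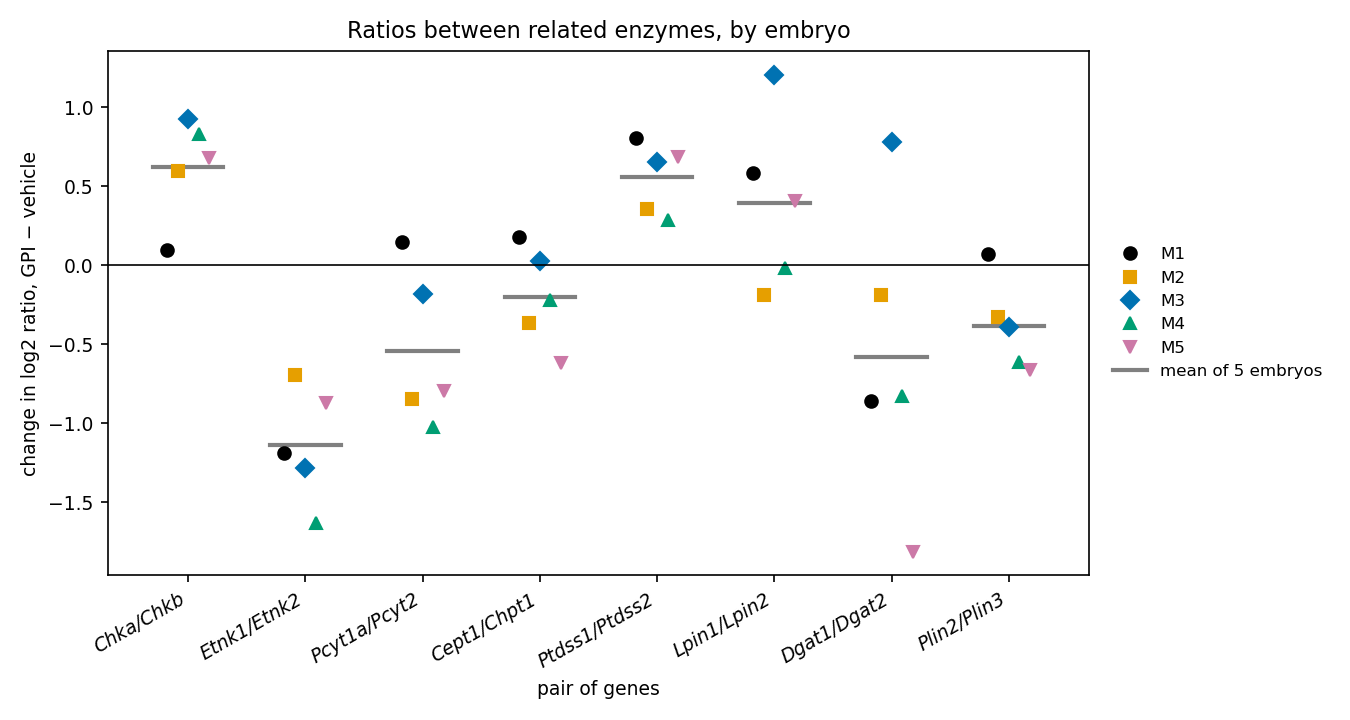
Change in the log2 ratio of normalised counts of 8 gene pairs, GPI minus vehicle, with 1 point per embryo and a bar at the mean of 5. All 5 points of Chka to Chkb and Ptdss1 to Ptdss2 are above 0 and all 5 of Etnk1 to Etnk2 are below it.

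Beyond the 34 genes, 81 others of the same pathways were listed, of which 66 were tested, 19 were higher and 2 lower (28.8% and 3.03%, against 11.1% and 11.9% of all tested genes), with a median log2 fold change of 0.20 against 0.02 for all tested genes. The count of higher genes was 16, 18, 9, 11 and 11 without M1, M2, M3, M4 and M5. The pathway lists were chosen with earlier results of these data known, so their shares beside those of all genes are description only. In the supply of acyl-CoA and glycerol 3-phosphate 2 genes were higher and 1 lower of 8 tested (37.5% passed, against 22.9% of all tested genes, median 0.15). Acsl4, which activates arachidonate and other long-chain fatty acids, had 2545, 2977, 2749, 3127 and 2894 normalised counts with vehicle and 2768, 4894, 4477, 5594 and 4453 with GPI. All 5 embryos were higher, M1 by the least (0.60 ± 0.09, adjusted p = 0.000314 in edgeR). Acsl3, an acyl-CoA synthetase found on nascent droplets, rose (0.34 ± 0.10, adjusted p = 0.0238), and its call was lost without M2, M3 or M4 (adjusted p = 0.0789, 0.0737 and 0.0937). Acsl5 fell in all 5 embryos (-0.50 ± 0.12, adjusted p = 0.00794). The spans of Acsl3 and Utp14b overlap on the same strand.

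Of 11 other glycerolipid acyltransferases tested, 4 were higher and 0 were lower in edgeR, with 1 at an unadjusted p under 0.05 in the lower direction and 0 lower in DESeq2 and limma-voom (36.4% passed, against 22.9% of all tested genes, median 0.16). Lpcat2, which reacylates lysophosphatidylcholine, rose from 138 ± 19.1 to 212 ± 26.7 normalised counts (0.62 ± 0.13, adjusted p = 0.00413 in edgeR). Lpcat3, known for placing arachidonate and linoleate in phospholipids, rose in 4 of 5 embryos (0.53 ± 0.14, adjusted p = 0.0146), a call lost without M3, M4 or M5 (adjusted p = 0.0508, 0.0641 and 0.0742). Lclat1, which acylates lysocardiolipin, rose in 5 of 5 (0.31 ± 0.08, adjusted p = 0.0152), with an adjusted p of 0.0582 without M5 (range over the 12 alternatives 0.0109 to 0.0582). The remaining call was Mboat2 (0.37 ± 0.10, adjusted p = 0.0196), named after its values were seen. The spans of Lpcat2 and Lpcat3 overlap Capns2 and Emg1.

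In the CDP-diacylglycerol branch, which leads to cardiolipin and phosphatidylinositol, 2 of 8 tested genes were higher and 0 lower in edgeR, with 0 lower at an unadjusted p under 0.05 and 0 in DESeq2 and limma-voom. That is 25.0%, against 22.9% of all tested genes. Ptpmt1, the phosphatidylglycerophosphate phosphatase, had 145 ± 8.49 with vehicle and 213 ± 36.5 with GPI (0.54 ± 0.13, adjusted p = 0.009 in edgeR). Crls1, cardiolipin synthase, had 385 ± 35.6 with vehicle and 476 ± 27.2 with GPI (0.31 ± 0.10, adjusted p = 0.0363). Its call was lost in DESeq2 (adjusted p = 0.0521), with library totals (0.078), with no filter (0.051) and without M1, M3, M4 or M5 (0.0914, 0.206, 0.0719 and 0.0788). Tafazzin, which remodels cardiolipin and is listed as Taz, did not pass (0.33 ± 0.12, adjusted p = 0.0633) except without M5 (adjusted p = 0.0299, range over the 12 alternatives 0.0299 to 0.218). Pgs1 and Tamm41, which act earlier in cardiolipin synthesis, were at -0.19 ± 0.26 and -0.02 ± 0.20 and did not pass (adjusted p = 0.655 and 0.961). The median log2 fold change of the 8 genes was -0.03.

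Of 7 tested genes listed for choline and ethanolamine supply, 2 were higher and 0 lower in edgeR, with 1 lower at an unadjusted p under 0.05 and 0 in DESeq2 and limma-voom (28.6% passed, against 22.9% of all tested genes, median 0.28). The 7 include Selenoi, which encodes an ethanolamine phosphotransferase and not a supply protein. Selenoi did not pass (0.07 ± 0.11, adjusted p = 0.71 in edgeR). Slc44a2, a choline transporter-like protein, had 662, 665, 673, 667 and 687 normalised counts with vehicle and 810.3, 738, 746, 938 and 869.5 with GPI. The groups did not overlap (0.28 ± 0.09, adjusted p = 0.0274 in edgeR), but the call was lost with library totals (adjusted p = 0.079) and without M1, M3, M4 or M5 (0.067, 0.0637, 0.135 and 0.0792). Flvcr2, also a choline carrier, rose in 4 of 5 embryos (0.70 ± 0.19, adjusted p = 0.0166), and its call was lost without M3, M4 or M5 (0.0719, 0.0717 and 0.09). Flvcr1 was lower in 5 of 5 without passing (-0.44 ± 0.15, adjusted p = 0.0534), and it passed with DESeq2 size factors (0.049), with library totals (0.0382) and with at least 10 counts in every library (0.0498). Its span overlaps another gene on the other strand.

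Of 10 tested genes for droplet assembly and sterol esters, 0 passed in edgeR, DESeq2 or limma-voom, against 22.9% of all tested genes in edgeR. Of these 10, 1 had an unadjusted p under 0.05 in edgeR (median 0.10). The 3 with the smallest p were Rab18 (0.24 ± 0.09, adjusted p = 0.0677 in edgeR), Ldah (0.21 ± 0.10, adjusted p = 0.172) and Faf2 (0.15 ± 0.08, adjusted p = 0.204), each higher in 5 of 5 embryos. Rab18 passed in the unfiltered fit (adjusted p = 0.0485, range over the 12 alternatives 0.0485 to 0.186).

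Among 9 other tested neutral lipases and cofactors 2 were higher and 1 lower (33.3% passed, against 22.9% of all tested genes, median 0.21). Abhd6 and Abhd12, which hydrolyse monoacylglycerol as Mgll does, were higher. Abhd6 had 108, 191, 189.8, 160.4 and 194 normalised counts with vehicle and 284, 264, 284, 298 and 298 with GPI. The groups did not overlap (0.78 ± 0.14, adjusted p = 0.00126 in edgeR). Abhd12 was higher in 5 of 5 embryos (0.43 ± 0.14, adjusted p = 0.0379), a call lost in DESeq2 (adjusted p = 0.0577), with library totals (0.0683) and without M1, M3, M4 or M5 (0.0881, 0.181, 0.096 and 0.1). Dagla, which produces monoacylglycerol from diacylglycerol, had 129.6, 109.8, 70.3, 74.7 and 103 with vehicle and 53.7, 52.7, 41.8, 40 and 54.5 with GPI. It fell in every embryo without overlap (-0.98 ± 0.19, adjusted p = 0.00196).

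Of 13 tested regulators of these pathways 7 were higher and 0 lower in edgeR, with 0 lower at an unadjusted p under 0.05 and 0 in DESeq2 and limma-voom (53.8% passed, against 22.9% of all tested genes, median 0.40). This list too was chosen with earlier results of these data known, so the comparison of shares is description only. The sterol-sensing escort of the SREBP factors, Scap, had 359.9, 532, 453, 341 and 478 normalised counts with vehicle and 800.2, 1010, 1148, 1242 and 1155 with GPI. The lowest GPI gonad was above the highest vehicle gonad (1.31 ± 0.12, adjusted p = 2.92e-06 in edgeR). Insig1, which retains Scap in the endoplasmic reticulum and is itself an SREBP target, had 622, 679, 760.4, 682 and 691 with vehicle and 555, 1402, 1199, 1637 and 1529 with GPI. M2 to M5 rose and M1 was lower than its partner (0.80 ± 0.16, adjusted p = 0.00231). The factors themselves did not pass, Srebf1 at 0.21 ± 0.12, adjusted p = 0.268 and Srebf2 at 0.29 ± 0.13, adjusted p = 0.126, although Srebf2 passed without M1 (adjusted p = 0.0197, range over the 12 alternatives 0.0197 to 0.456).

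The fatty acid receptor gene Ppara had 39.9, 38.2, 60.3, 43.8 and 83 with vehicle and 125, 165, 155, 149 and 143 with GPI, without overlap (1.51 ± 0.21, adjusted p = 0.000127 in edgeR). Cebpa, a factor of adipocyte and myeloid differentiation, had 28.8, 33.4, 58.1, 15.9 and 61.7 with vehicle and 69.4, 99.7, 108, 139 and 102 with GPI, also without overlap (1.45 ± 0.30, adjusted p = 0.00291). Mlxipl, the carbohydrate response factor, rose in 4 of 5 embryos (0.65 ± 0.16, adjusted p = 0.00906), with an adjusted p of 0.0618 without M3 and 0.0516 without M4. The coactivator gene Ppargc1a rose in 5 of 5 (0.40 ± 0.11, adjusted p = 0.0137), a call lost without M3, M4 or M5 (0.0866, 0.059 and 0.0676). Pparg had low counts, 25.5, 23.9, 22.3, 30.9 and 15.2 with vehicle and 75, 37.3, 51.3, 37.9 and 29.4 with GPI (0.93 ± 0.30, adjusted p = 0.041), and its call was lost with library totals (0.0533) and without M1, M2, M3 or M5 (0.154, 0.0545, 0.145 and 0.0832). Ppard (-0.31 ± 0.22), Nr1h2 (-0.08 ± 0.20) and the lipin phosphatase genes Ctdnep1 (0.12 ± 0.14) and Cnep1r1 (-0.10 ± 0.09) did not pass, and Nr1h3 was set aside by the filter. The E-box CACGTG was found before Scap, Insig1 and Mlxipl, 3 of the 14 regulators, the sterol regulatory element before Mlxipl and the NR5A1 element before 0. Of the 21 promoters of these 14 genes 14.3% held the E-box, 4.76% the sterol regulatory element, 47.6% CCAAT and 57.1% GGGCGG, against 6.02%, 1.05%, 33.8% and 32.7% of all promoters. Counts of Srebf1, Srebf2 and Ctdnep1 are uncertain, since their spans overlap Rai1, Mir33 and Elp5.

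**Figure D5:**
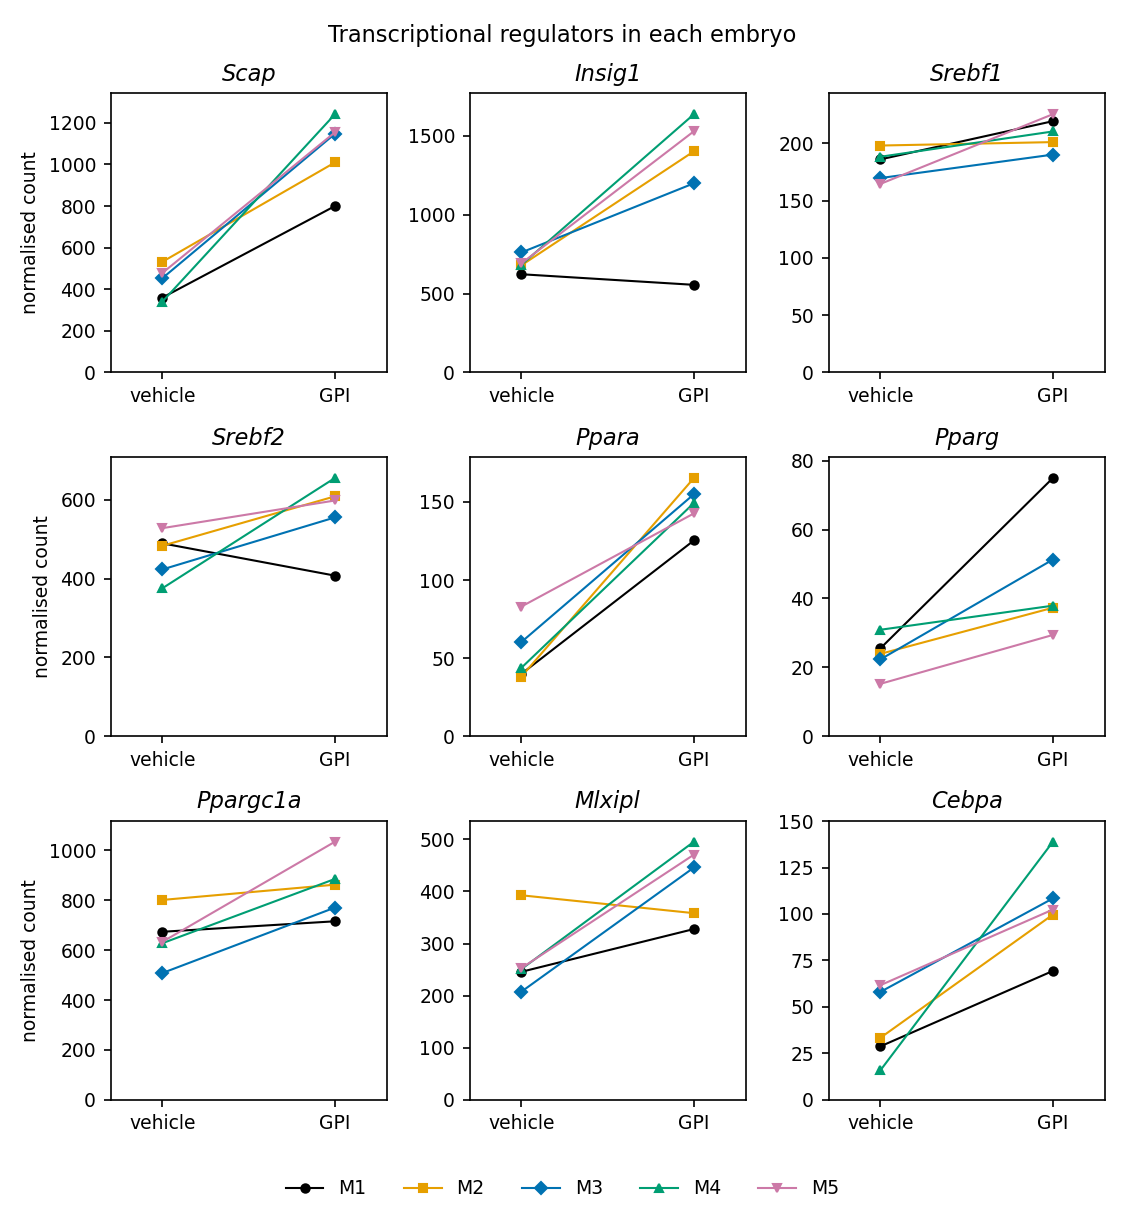
Normalised counts of 9 regulator genes in the vehicle and GPI gonad of each embryo, with axes that start at 0. Scap, Ppara and Cebpa are higher with GPI in all 5 embryos without overlap of the groups, and M1 is the only embryo in which Insig1 is lower.

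Markers of several cell types changed as well, and their part in the changes above was not tested. All 4 tested fetal Leydig markers of 5 were higher, and the summed list was 1280, 2700, 3980, 1991 and 5303 normalised counts with vehicle and 9634, 10119, 15750, 18089 and 12928 with GPI. The gene with the most counts was Hsd3b1 with vehicle (1.75 ± 0.20, adjusted p = 2.71e-05 in edgeR) and Cyp11a1 with GPI (2.90 ± 0.27, adjusted p = 4.56e-06). Cyp17a1 (3.90 ± 0.29, adjusted p = 5.91e-07) and Star (0.79 ± 0.12, adjusted p = 0.000293) also rose, and Insl3 was at 0 to 7.4. Of 7 Sertoli markers 5 were higher, with sums of 2963, 4582, 3364, 4392 and 4707 with vehicle and 3214, 6080, 6194, 7957 and 5994 with GPI, and Aard as the gene with the most counts in both groups (0.54 ± 0.12, adjusted p = 0.00614). The Sertoli markers Amh (0.08 ± 0.22, adjusted p = 0.8425) and Cst9 (-0.19 ± 0.15, adjusted p = 0.422) did not pass in edgeR. The striated muscle list was higher too, with 3 tested genes of 5 higher, sums of 200.4 ± 63.9 with vehicle and 1093 ± 310 with GPI and Myh6 with the most counts in both groups (2.99 ± 0.22, adjusted p = 5.53e-07), while Ckm was at 0 in 9 of 10 libraries.

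Several lists were lower, as Lpin3 and Mgll were. All 8 endothelial markers were lower, with sums of 7697, 7933, 7348, 8479 and 7529 with vehicle and 856, 1006, 696, 556 and 710.4 with GPI, and the most counts for Cdh5 with vehicle (-3.63 ± 0.12, adjusted p = 3.76e-10 in edgeR) and for Kdr with GPI (-2.44 ± 0.13, adjusted p = 3.57e-08). Of 5 tested germ cell markers of 8, 4 were lower, with sums of 991, 2060, 1206, 1720 and 639 with vehicle and 141, 118, 43.8, 45.3 and 104 with GPI, and the most counts for Dazl with vehicle (-4.62 ± 0.34, adjusted p = 5.6e-07) and for Ddx4 with GPI (-2.72 ± 0.45, adjusted p = 0.000515). Of 8 macrophage markers 7 were lower, with sums of 892, 620.4, 691, 644 and 549 with vehicle and 403, 362, 317, 203 and 227 with GPI, and the most counts for Cd68 in both groups (-0.76 ± 0.19, adjusted p = 0.00933). The part of these and the other lower lists in the fall of Lpin3 and Mgll was not tested.

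Adipocyte markers were at or near 0 in both groups. Lep had 0 counts in the 10 libraries, Adipoq and Cfd had 3 counts or fewer in each, and the sum of 5 genes was at most 13.1 normalised counts, with the most counts for Adrb3 with vehicle and for Retn with GPI. The erythroid list had 5 of 6 genes lower, with sums of 2744 ± 783 with vehicle and 1389 ± 637 with GPI and the most counts for Hbb-y in both groups (-0.98 ± 0.23, adjusted p = 0.0075 in edgeR). Of 4 tested smooth muscle and pericyte genes of 5, 1 was lower (Rgs5, -4.32 ± 0.29, adjusted p = 1.83e-07), with sums of 2232 ± 366 with vehicle and 1616 ± 158 with GPI and the most counts for Acta2 in both groups (-0.12 ± 0.11, adjusted p = 0.508). Of 2 tested mesonephric tubule genes of 4, 1 was lower, with sums of 1203 ± 261 with vehicle and 741 ± 154 with GPI and the most counts in both groups for Emx2, which the gonad also expresses (-0.73 ± 0.13, adjusted p = 0.000774).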

How the data were processed

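RNA of 10 gonads was sequenced. The deposited values are raw counts per gene that the authors obtained with STAR 2.5 (mm10) and featureCounts (Subread 1.5.0-p1), ignoring strand, per the submitters' notes and the methods. The whole table was fitted with edgeR 4.0.16 (R 4.3.3) after TMM scaling and filterByExpr (minimum count 10, minimum total 15), which kept 13941 of 24470 genes. The design held embryo and treatment, quasi-likelihood F tests were adjusted by Benjamini-Hochberg over all tested genes, and a gene was called at a false discovery rate of 0.05. Fold changes are log2, GPI over vehicle.

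The pairing comes from the labels: both gonads of a pair are from 1 embryo. Deviations from the group means correlated at -0.04 to 0.16 between gonads of the same embryo. Libraries of 1 group differed by 6.42 to 27.8 chi-square per degree of freedom, so none was a duplicate. Log2 values used a prior count of 2. Isozyme ratios were tested by exact permutation over the 32 sign flips of 5 pairs.

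The alternatives were DESeq2 1.42.0, limma-voom (limma 3.58.1), DESeq2 size factors, library totals only, no filter, at least 10 counts in every library, no embryo block, and each embryo left out. The fit was tested on simulated counts. The members, lists and tests were chosen with earlier results of these data known. Each library's values are given for called members with a mean of at least 50 counts and for the genes of the 8 ratios; those of Mgll, Plin1, Mogat2 and some pathway genes are added after their values were seen. Other genes named were the 3 with the smallest p of each of 7 pathway lists (81 genes), all regulators, and the gene with the most counts in each of 10 marker lists. Mboat2, Kdr, Ddx4, Cyp11a1, Cyp17a1, Star, Amh, Cst9, Rgs5, Adrb3, Pgs1, Tamm41, Selenoi and the markers at or near 0 were added after their values were seen. Tafazzin and Ldaf1 were matched by Entrez identifier to older symbols. Lengths are those of the longest protein-coding GENCODE M21 transcript. Intervals and limits from counts cover counting error only.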

Additional observations from a re-analysis of the deposited data

Results flagged for a closer look

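In 120 groups of 5 gonads (60 named genes in both groups), 5 held a gonad whose distance from its nearest neighbour was over 0.71 of the range of the group. Chance gives about 1 in 20, or 6. Etnk1 had 1965 normalised counts in the M2 gonad with vehicle, against 2200 to 2259 in the other 4. Dgat2 had 33.2 in the M1 gonad with vehicle, against 7.6 to 11.2. Plin2 had 622 in the M1 gonad with GPI, against 422 to 478. Plin3 had 239 in the M3 gonad with GPI, against 291 to 311. Mlxipl had 393 in the M2 gonad with vehicle, against 208 to 253.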

How the results depend on the processing

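All 7 higher and 2 lower members kept their direction in every alternative that tested them, and Chka, Etnk2, Agpat3 and Mgll also kept their call. Over the 29 tested members, 316 of 345 values kept direction and side of the threshold. Members called higher ranged from 3 to 7 when 1 embryo was left out, and members called lower from 1 to 2. Without embryo M3, 3 were higher and 1 was lower, and without M4, 4 and 2. By class, leaving out 1 embryo gave 2 to 4 phospholipid genes higher and 0 to 1 lower, and 1 to 3 triglyceride genes higher and 0 to 1 lower; it gave 9 to 18 pathway genes higher against 19 in full.

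With no embryo block (unpaired fit), 6 members were higher and 3 lower, with 1 phospholipid gene lower (Etnk1), and Agpat4 was lost (adjusted p = 0.105); no other call changed among the 29 tested members and the 31 pathway genes refitted. Library totals as the only scaling left 2 phospholipid genes higher and 1 lower. With no low-count filter 2 triglyceride genes were lower, as Mogat2 entered, and with at least 10 counts in every library 1 member was lower and 0 droplet genes, as Mgll was not tested. Apart from these last 2 settings, the cause was not tested.

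Reversals concerned genes that were not called. Cept1 was at -0.0144 with library totals and at -0.0238 to 0.0667 when 1 embryo was left out. The ranges with 1 embryo left out were -0.301 to 0.0220 for Agpat1, -0.180 to 0.162 for Agpat2, -0.0353 to 0.133 for Lpin2, -0.0258 to 0.278 for Dgat1 and -0.205 to 0.0160 for Nr1h2. Without a change of sign, the log2 fold change (not the fold itself) also moved by a factor of over 1.5 with 1 embryo left out for the uncalled Chkb (0.03 to 0.20), Pcyt1a (0.12 to 0.29), Ptdss2 (-0.30 to -0.05), Agpat5 (0.05 to 0.16), Pnpla2 (0.02 to 0.25), Lipe (0.38 to 0.73), Rab18 (0.14 to 0.30), Srebf2 (0.16 to 0.41), Ppard (-0.51 to -0.19), Cnep1r1 (-0.16 to -0.06) and Ctdnep1 (0.02 to 0.25). The same held for the uncalled Chpt1 (0.15 to 0.36) and Plin2 (-0.29 to -0.11). The 8 ratios kept their sign with a prior count of 0.5 and without each embryo. Across all genes, calls higher and lower were 1544 and 1654, and 1238 and 1972 with library totals. Agpat2, Dgat2, Plin1, Pnpla2, Lipe and Mgll had mean counts under 50, and 5 genes had too few to be tested.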

Other observations

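Embryo M1 differed from the other 4 at several of these genes, and other embryos did so at other genes. Pcyt1a, Ptdss1, Gpam and Pnpla2 were lower with GPI only in M5, and Plin1 and Plin3 only in M2. The genes compared between embryos here were picked after their values were seen. Pcyt1b was 133 normalised counts with vehicle and 68.3 with GPI in M1, while M2 to M5 were higher with GPI. Insig1 and Plin2 also moved opposite to the others there, and the Chka to Chkb ratio changed least. The M1 gonads had the lowest Etnk2 of their groups, 76.4 and 141. The mesonephric tubule genes Pax8 and Cdh16 were highest in the M1 gonad with vehicle, at 399.7 and 113, against 53.3 to 208 and 0 to 48 in the other 4 vehicle gonads. These 2 genes are named after their values were seen, and a link between them and the lipid genes was not tested.

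The 12 tested phospholipid genes had a median log2 difference, GPI minus vehicle, of 0.23 in M2, 0.27 in M3 and 0.27 in M4, and of -0.0015 in M1 and -0.02 in M5. The 11 tested triglyceride genes had medians of 0.34, 0.26, 0.17, 0.35 and 0.11 in M1 to M5, and the 6 tested droplet genes 0.22, -0.26, 0.05, 0.34 and -0.08. Over all 13941 tested genes the medians lay between 0.006 and 0.024.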
